A study of Mus musculus with 8 samples.

Results

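The insulin-like growth factor (IGF) axis was followed through mouse thyroid follicular cell organoids (TFCOs) and intact tissue by 10 of its genes. They were the ligands Igf1 and Igf2, the receptors Igf1r, Igf2r and Insr, and the binding proteins Igfbp2, Igfbp3, Igfbp4, Igfbp5 and Igfbp7. The genes were picked by symbol from a table of 16119 genes, and all 10 were found and passed the filter on low values. RNA was sequenced from 8 libraries in 4 groups of 2. Both TFCO lines, mThy14 and mThy16, contributed an early and a late passage, and thyroid tissue and lung tissue were sequenced as 2 samples each, with lung as an unrelated organ. All samples were wild type and of strain C57BL/6, with no age given. TFCOs grew from dissociated thyroid cells in basement membrane extract, in a medium with B27, R-spondin 3, A83-01, forskolin, EGF and FGF10. No IGF is listed for this medium, and B27 is a supplement that contains insulin. Each TFCO line stands for 1 culture, and its early and late libraries are not independent samples. Differences between groups therefore rest on 2 lines and on 2 samples of each tissue, whose origin in separate animals is not stated.

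IGF1 and IGF2 are secreted growth factors that signal through the receptor tyrosine kinase IGF1R. The related insulin receptor binds insulin and, in one of its splice forms, IGF2, whereas IGF2R takes IGF2 up for degradation and also sorts lysosomal enzymes. The binding proteins hold IGFs in blood and tissue and set how much reaches the receptor, with IGFBP7 binding IGFs only weakly. In the thyroid, insulin or IGF1 is known to act together with thyrotropin on the growth and function of follicular cells, and IGF1R is studied in the orbital disease that accompanies Graves' disease.

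The table holds normalized counts, which are reads per gene divided by a size factor of the library, and between 9755081 and 16904865 reads on genes lay behind a library. The TFCO label was borne out by the thyroid transcription factor Pax8, at 3925 to 8273 normalized counts in TFCOs against 0 in both lung tissues, and by the epithelial adhesion gene Epcam, at 5497 to 11057. Fibroblast genes were nearly absent from TFCOs, in which 7 of them summed to 95.8 to 252 normalized counts against 26791 to 30033 in thyroid tissue, and Lum stood at 0 in all 4 libraries. Thyroid tissue also carried the parathyroid hormone gene Pth, at 8411 and 25341 normalized counts, so that it was not thyroid alone. Skeletal muscle markers summed to 42173 and 137214 in thyroid tissues 1 and 2, and adipocyte markers to 3894 and 8649. The libraries further fell into 2 sets that did not follow the groups. Thyroid tissue 2 and the lung tissues lacked any read of 44 genes that reached 50 or more normalized counts in each of the other 5 libraries, and 16 genes showed the reverse. None of the 10 IGF axis genes was among them. Within a set, TFCOs can be compared only with thyroid tissue 1, and lung only with thyroid tissue 2.

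Groups were compared on log2(normalized counts + 1) with limma over 14703 genes, and a gene was called at a Benjamini-Hochberg adjusted p under 0.05. The passages of a line were averaged before TFCOs were compared with tissue. These comparisons share samples, so their results are set side by side and not counted against each other. In TFCOs against thyroid tissue, 1 of the 10 genes was called, Igfbp3, which was lower. Over all genes, 3.65% were called in that comparison, 0.599% higher and 3.05% lower. In TFCOs against lung tissue, 3 of 10 were called, Igf1r higher and Igf1 and Igfbp3 lower, where 23.4% of all genes were called, 9.83% higher and 13.5% lower. All lung libraries lie in the set without TFCOs, so here a difference of tissue and one of set cannot be told apart. In thyroid against lung tissue, only Igfbp2 was called, which was lower in thyroid, beside 6.05% of all genes, 2.89% higher and 3.16% lower. Thyroid values lay above both lung values for 2 of the 10 genes, Igf1r and Igfbp3, and below them for 3, Igfbp2, Igfbp4 and Igfbp7, while this was so for 26.2% and 27.5% of all genes. The median log2 difference of the 10 genes was -0.45, -1.86 and -0.47 in these comparisons, and that of all genes was 0.05, 0.05 and 0.03.

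**Figure D1:**
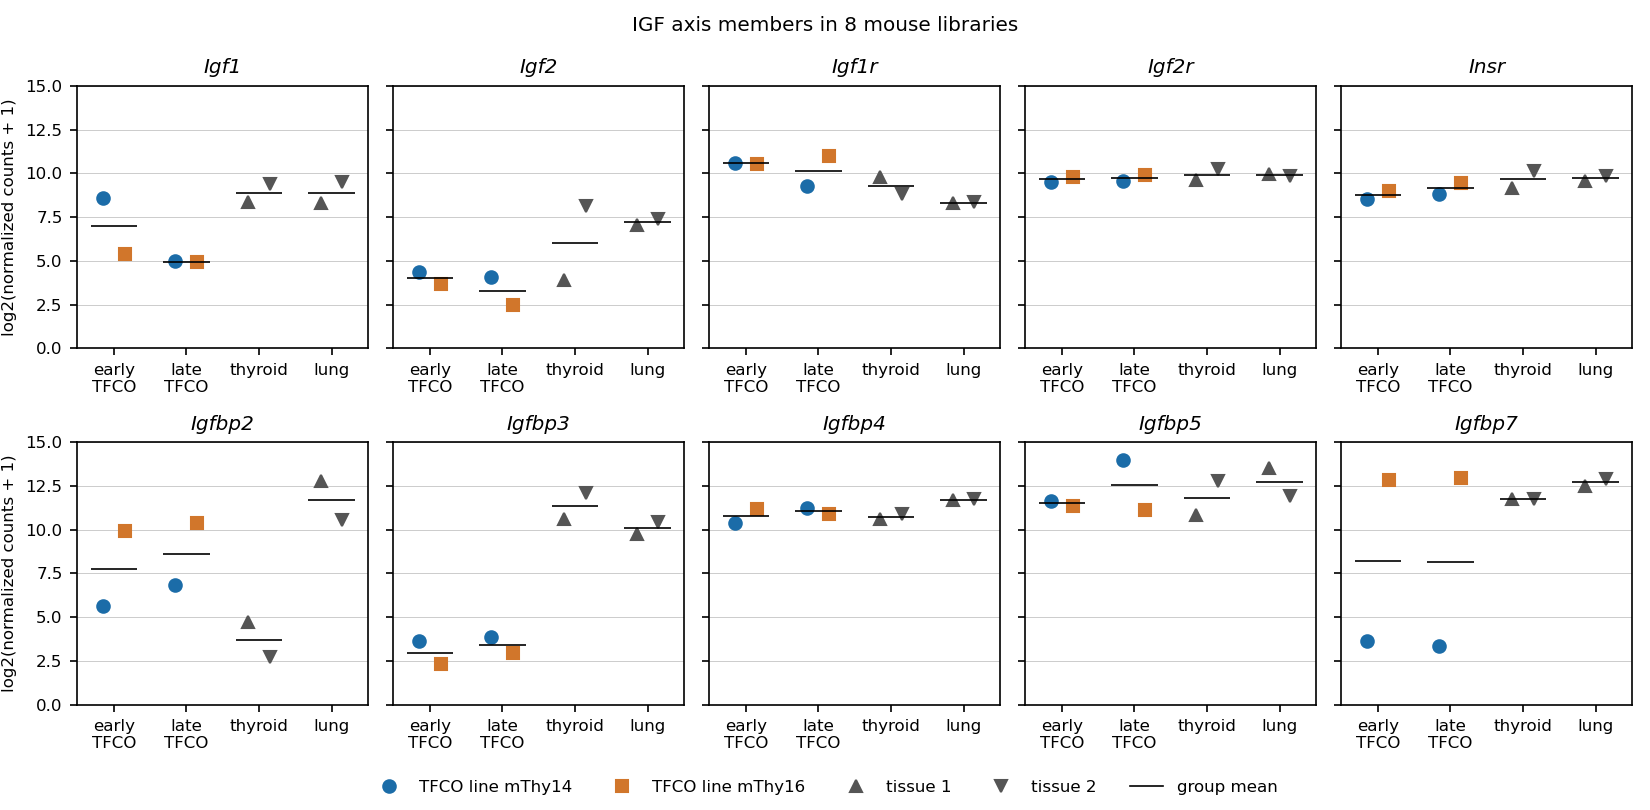
The level of each IGF axis gene, as log2(normalized counts + 1), in early TFCOs, late TFCOs, thyroid tissue and lung tissue (2 libraries per group). Circles are line mThy14, squares line mThy16, triangles the tissues (upward for sample 1, downward for sample 2), and bars the group means. Igfbp3 lies at 3.96 to 13.5 normalized counts in TFCOs and at 869 or more in every tissue, Igfbp7 and Igfbp2 separate the TFCO lines, and Igf2r and Igfbp4 lie close together throughout.

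Igf1, on chromosome 10 (GRCm38 chr10:87858265-87937042, plus strand), was scarce in 3 of the 4 TFCO libraries. It stood at 382 normalized counts in early TFCOs of mThy14, at 40.6 in early TFCOs of mThy16, and at 31.2 and 29.1 in late TFCOs of mThy14 and mThy16. Thyroid tissues held 330 and 684 normalized counts, and lung tissues 314 and 719. The early mThy14 library therefore lay within the tissue range while the others lay far under it. Averaged over lines, Igf1 was 7.59-fold below thyroid tissue, a log2 difference of -2.92 ± 0.73 (SE, n = 2 lines and 2 tissues) that missed the threshold (limma, adjusted p = 0.0877). Without the early mThy14 library the difference was -3.82 and was called (limma, adjusted p = 0.0235), where 3.56% of all genes were called. Without thyroid tissue 1, which leaves 1 thyroid sample, the difference was -3.45. Against lung tissue the log2 difference was -2.93 ± 0.73 and was called (limma, adjusted p = 0.0345). That call was lost without late mThy14 TFCOs (limma, adjusted p = 0.180), under quantile normalization (0.0712), without a mean-variance trend (0.0631) and by voom (0.0625). It also did not hold without either lung tissue, where 1 lung sample remained and fewer genes were called in all. With 1 library left out, the log2 difference ranged from -3.82 to -2.03. Within the set of thyroid tissue 1, TFCOs were lower by a log2 difference of -2.40.

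The early mThy14 library was also the TFCO library with most fibroblast marker signal, at 252 normalized counts over 7 genes against 95.8 to 132 in the other 3. In thyroid tissues 1 and 2 these genes summed to 30033 and 26791, and Igf1 stood at 330 and 684. Whether Igf1 and these markers change together was not tested. Early mThy14 TFCOs had the lowest sum of leukocyte markers among TFCOs, at 714 normalized counts against 1285 to 1834. That sum was mostly Lcp1 in mThy14 (670 early, 1784 late) and Cd14 in mThy16 (899 early, 978 late). Ptprc, Cd68, Csf1r, Cd3e and Cd79a were at 42.5 normalized counts or less in every TFCO library, so the order of the sums rests on few genes. Early mThy14 TFCOs also had the highest sum of follicular cell markers, at 162672 against 20246 to 98505. Whether any of these cells carried its Igf1 was not tested. The genes with the most similar pattern over the 8 libraries, by the root mean square difference of mean-centred log2 values, were C1qtnf3 (0.38), Amph (0.48) and Prdm1 (0.52), set against a standard deviation of 1.99 for Igf1 itself. Amph, for example, stood at 91.4 normalized counts in early mThy14 TFCOs, at 8.3 to 15.7 in the other TFCOs and at 139 to 339 in tissue.

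Igf2, on chromosome 7 (GRCm38 chr7:142650766-142666816, minus strand), was low in every TFCO library, at 19.7 and 11.9 normalized counts in early and 15.6 and 4.47 in late TFCOs of mThy14 and mThy16. Thyroid tissue 1 held 14.2 and thyroid tissue 2 held 276, and the lung tissues held 134 and 165. Igf2 thus divided the libraries along the same line as the 2 sets described above, and not along the groups. The log2 difference of TFCOs from thyroid tissue was -2.38 ± 1.36 (limma, adjusted p = 0.373). It was -0.28 within the set of thyroid tissue 1 and -4.47 when thyroid tissue 1 was left out, which leaves 1 thyroid sample. Against lung tissue the log2 difference was -3.59 ± 1.36 and was not called (limma, adjusted p = 0.0863). Genes of the most similar pattern were Bivm (0.36), Vps33a (0.39) and Rcan3 (0.42), and each of them showed the split between sets. Vps33a, a vesicle trafficking gene, stood at 35.8 to 73.9 normalized counts in TFCOs and thyroid tissue 1 and at 593 to 752 in the other 3 libraries. The thyroid samples, from one organ, thus differed in Igf2 by a log2 value of 4.19.

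**Figure D2:**
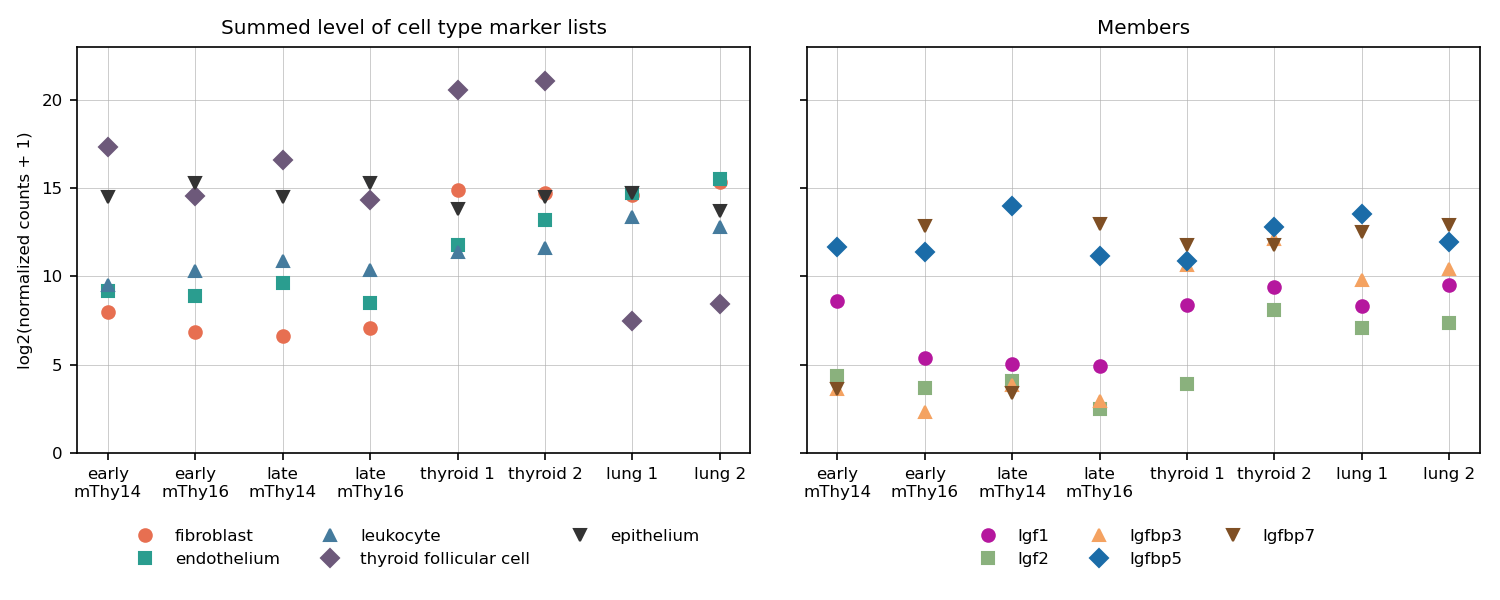
Left, the summed level of the marker lists of 5 cell types in each library, and right, the level of 5 IGF axis genes, both as log2(normalized counts + 1), without error bars because each point is 1 library. Fibroblast and endothelial markers are low in all 4 TFCO libraries and high in all 4 tissues, as is Igfbp3, whereas Igf1 is also high in early mThy14 TFCOs, Igf2 is low in thyroid tissue 1, and Igfbp7 is high in mThy16 TFCOs.

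The receptors were present in every library. Igf1r, on chromosome 7 (GRCm38 chr7:67952827-68233668, plus strand), stood at 1557 (mThy14) and 1478 (mThy16) normalized counts in early TFCOs and at 620.3 and 2008 in late TFCOs. Thyroid tissues held 890.5 and 446, and lung tissues 315 and 326. Both lung tissues lay below all TFCO libraries, and late mThy14 TFCOs lay between the thyroid tissues. Igf1r was the only one of the 10 genes whose TFCO values all exceeded those in lung, while groups did not overlap in that direction for 34.4% of all genes. TFCOs were 4.05-fold above lung tissue, a log2 difference of 2.02 ± 0.47 that was called (limma, adjusted p = 0.0281). The call was lost without early mThy14 TFCOs (limma, adjusted p = 0.0721) and without a mean-variance trend (0.0625). It also did not hold without either lung tissue, where 1 lung sample remained and fewer genes were called in all. With 1 library left out, the log2 difference ranged from 1.69 to 2.35. Against thyroid tissue the log2 difference was 1.04 ± 0.47 with an interval of -0.06 to 2.15 and was not called (limma, adjusted p = 0.289). Within the set of thyroid tissue 1 it was 0.55. The nearest patterns were those of the nucleoporin gene Nup43 (0.23), the tubulin gene Tubb6 (0.23) and Mcm7 (0.28), a subunit of the replicative helicase. Mcm7 stood at 636 to 1420.1 normalized counts in TFCOs, at 644.5 and 389 in thyroid tissue and at 342 in each lung tissue.

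Insr, on chromosome 8 (GRCm38 chr8:3122061-3279617, minus strand), leaned the other way. Its values were 377 and 519 normalized counts in early and 460.1 and 698 in late TFCOs of mThy14 and mThy16, 575 and 1137 in thyroid tissue, and 753 and 940 in lung tissue. All TFCO libraries lay below both lung tissues but overlapped with thyroid tissue. The log2 difference was -0.69 ± 0.44 from thyroid tissue, with an interval of -1.73 to 0.35 (limma, adjusted p = 0.410), and -0.75 ± 0.44 from lung tissue (limma, adjusted p = 0.223), and neither was called. Igf2r, on chromosome 17 (GRCm38 chr17:12682406-12769664, minus strand), was the most even of the 10 genes, at 734 to 957 normalized counts in TFCOs, 781 and 1211 in thyroid tissue and 995 and 917 in lung tissue. Its log2 difference of TFCOs from thyroid tissue was -0.22 ± 0.36, and the interval of -1.07 to 0.64 does not exclude a change of about 2-fold. Nearest to Insr were Map3k2 (0.14), Ubxn7 (0.17) and Elmod2 (0.18), and nearest to Igf2r, at a standard deviation of 0.24, were Ibtk (0.08), Trmt10c (0.10) and Ssr3 (0.10). Per kilobase of the longest annotated transcript, the ratio of Igf1r to Insr was 3.39 and 2.34 in early and 1.11 and 2.36 in late TFCOs of mThy14 and mThy16. In thyroid tissue the ratio was 1.27 (sample 1) and 0.322 (sample 2), and in lung tissue 0.343 and 0.284. Per kilobase, Igf1r transcripts thus exceeded those of Insr in all TFCO libraries, narrowly in late mThy14, and in thyroid tissue 1. The reverse held in thyroid tissue 2 and lung, which are the libraries of the other set. Receptor protein was not measured.

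Igfbp3, the main carrier of IGFs in blood, marked the sharpest difference between organoids and tissue. TFCOs held 11.2 and 3.96 normalized counts at early and 13.5 and 6.71 at late passage of mThy14 and mThy16, which came from 4 to 13 reads per library. Thyroid tissues held 1583 and 4379 normalized counts and lung tissues 869 and 1371. The groups lay 2 orders of magnitude apart, with no overlap. The log2 difference was -8.18 ± 0.65 from thyroid tissue (limma, adjusted p = 0.00224), a 290.0-fold lower level, and -6.91 ± 0.65 from lung tissue (limma, adjusted p = 0.00146), a 120.3-fold lower level. Both calls held when any library was left out, and within the set of thyroid tissue 1 the log2 difference was -7.45. Igfbp3 was the only one of the 10 genes with all TFCO values below both thyroid tissues, which was the case for 17.3% of all genes. The nearest patterns were those of Cox6a2 (0.53), a muscle form of a cytochrome oxidase subunit, Aspn (0.76), a matrix proteoglycan, and Esm1 (0.78), a gene of endothelial cells, set against a standard deviation of 4.11. Each was at 8.4 normalized counts or less in every TFCO library.

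Marker genes of most other cell types were also low in TFCOs, with exceptions given here, and in bulk RNA fewer cells of a type and less RNA per cell cannot be told apart. In TFCOs against thyroid tissue, all 7 fibroblast genes were lower at adjusted p under 0.05, as were 4 of 7 endothelial, 2 of 6 mural, 2 of 7 leukocyte, 3 of 6 adipocyte, 5 of 6 skeletal muscle, 4 of 4 C cell and 2 of 3 parathyroid genes. Of the epithelial genes 0 of 7 were lower, with a median log2 difference of 0.56, and of the follicular cell genes 1 of 8 was lower, although their median was -1.93 and 4 of them lay below both thyroid tissues in every TFCO library. Of 7 alveolar and airway genes 1 was higher in TFCOs, the surfactant gene Sftpb (1475 to 28177 normalized counts against 25.0 and 28.6 in thyroid tissue), and 0 were lower. The leukocyte marker Cd14 stood at 899 and 978 in mThy16 and at 49.0 and 105 in thyroid tissue. TFCOs and thyroid tissue also overlapped for the mural markers Myh11 and Acta2 and the endothelial marker Egfl7. The same held for the leukocyte markers Cd68, Cd3e and Cd79a and the adipocyte marker Adipoq. The skeletal muscle marker Acta1 stood at 1796 to 2442 in TFCOs, below thyroid tissue (15925 and 46148) but above lung tissue (4.2 and 44.5). Endothelial markers summed to 361 to 794 normalized counts in TFCOs, 3567 and 9487 in thyroid tissue, and 26973 and 46494 in lung tissue. The part of any of these cell types in the Igfbp3 level of tissue was not tested.

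The promoter sequences of the binding proteins that changed most between organoids, lines or tissues are shown from 250 bases before to 50 bases after the RefSeq start, 5′ to 3′ on the strand of the gene, with each CG dinucleotide in capitals. They are given to show how rich in CG, the dinucleotide that DNA methylation acts on, these genes are at their starts. Methylation itself was not measured here. A promoter was found for 9 of the 10 genes, all but Insr, among 32851 entries of GRCm38.p6, whose median was 7 CG.
Igfbp3, chr11:7213874-7214173, minus strand: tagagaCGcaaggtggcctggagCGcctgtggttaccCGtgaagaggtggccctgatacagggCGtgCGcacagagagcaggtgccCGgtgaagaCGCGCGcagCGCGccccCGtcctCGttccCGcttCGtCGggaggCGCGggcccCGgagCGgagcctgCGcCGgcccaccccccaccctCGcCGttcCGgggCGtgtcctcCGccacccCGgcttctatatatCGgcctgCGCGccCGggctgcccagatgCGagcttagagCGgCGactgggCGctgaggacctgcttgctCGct
Igfbp7, chr5:77407996-77408295, minus strand: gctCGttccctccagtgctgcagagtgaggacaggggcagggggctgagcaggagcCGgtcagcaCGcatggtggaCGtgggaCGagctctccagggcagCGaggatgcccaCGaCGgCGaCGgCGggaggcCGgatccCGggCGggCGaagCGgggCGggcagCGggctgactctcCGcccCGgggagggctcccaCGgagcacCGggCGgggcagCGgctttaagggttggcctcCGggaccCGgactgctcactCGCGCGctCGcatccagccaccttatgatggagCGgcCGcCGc
Igfbp2, chr1:72824230-72824529, plus strand: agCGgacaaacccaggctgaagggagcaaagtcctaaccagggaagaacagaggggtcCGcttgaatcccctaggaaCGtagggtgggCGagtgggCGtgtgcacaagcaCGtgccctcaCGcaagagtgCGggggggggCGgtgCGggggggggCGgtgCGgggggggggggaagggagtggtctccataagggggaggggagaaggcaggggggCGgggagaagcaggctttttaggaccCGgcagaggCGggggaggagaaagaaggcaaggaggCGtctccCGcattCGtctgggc
The windows hold 37, 33 and 18 CG, and 5.58%, 8.56% and 29.7% of all promoters of this length hold as many. The letters TATAAA were on neither strand of these windows and occur in 13.6% of all promoters. Of the 9 matched genes, only Igfbp4 has them. For Igfbp2 a further start is listed, with 14 CG in its window. Many CG were not particular to the genes shown, since the windows of Igf1r, Igf2r and Igfbp4 hold 48, 34 and 27. Those of Igfbp5 and Igf1 hold 10 and 6, and those of the listed Igf2 starts 2 to 24. A link between the number of CG and the level of a gene was not tested.

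Igfbp7, on chromosome 5 (GRCm38 chr5:77349240-77408041, minus strand), separated the TFCO lines and not organoids from tissue. TFCOs of mThy16 held 7265 normalized counts at early and 7933 at late passage. TFCOs of mThy14 held 11.2 and 9.37, which came from 8 and 9 reads. Thyroid tissues held 3471 and 3495 and lung tissues 5862 and 7695. The mThy16 libraries were thus above both thyroid tissues at both passages, and the mThy14 libraries lay more than 300-fold below them. The log2 difference of mThy16 from mThy14 was 9.21 at early and 9.58 at late passage. Ranked by the smaller of these values, Igfbp7 was number 1 of 14703 genes. At both passages 212 genes (1.44%) were at least 8-fold higher in mThy16 and 35 (0.238%) at least 8-fold lower. Igfbp7 and Igfbp2 were the IGF axis genes among them, both higher in mThy16. Each line is 1 culture, so the difference between lines has no replicate beyond its passages and was not tested.

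With the lines so far apart, the mean of TFCOs says little about Igfbp7. Its log2 difference from thyroid tissue was -3.57 with a standard error of 2.52 (limma, adjusted p = 0.447), whereas line mThy14 alone was at -8.27 and line mThy16 at 1.13 relative to thyroid tissue 1. The thyroid tissues themselves, which lie in different sets, differed by a log2 value of 0.01. The nearest patterns were those of the protease gene Prss23 (0.93), the prohormone-processing gene Cpe (1.08) and the calcium-binding S100a6 (1.12), set against a standard deviation of 4.18. Cpe was at 9.8 (early) and 4.2 (late) normalized counts in mThy14 and at 5111 and 5539 in mThy16. The lines also differed in follicular cell markers, which summed to 162672 (early) and 98505 (late) normalized counts in mThy14 and to 24094 and 20246 in mThy16. Epithelial markers summed to 22678 and 23391 in mThy14 and to 40222 and 40819 in mThy16, but did not all differ alike. Krt7, Krt8, Krt18 and Krt19 were higher in mThy16 at both passages. Epcam was lower there, at 5497 and 5569 normalized counts against 11057 and 8764 in mThy14. Cdh1 differed in opposite directions at the passages, and Cldn7 lay close together in the lines. Endothelial cells are known to express Igfbp7, and their markers summed to 480.3 (early) and 361 (late) normalized counts in mThy16 and to 572 and 794 in mThy14. These sums were mostly Kdr (244 and 177 in mThy16, 80.1 and 381 in mThy14) and Egfl7 (134 and 63.7, 356 and 306). Pecam1, Cdh5, Emcn, Tie1 and Vwf were at 85.3 normalized counts or less in every TFCO library, so the order of the sums rests on few genes. The part of any of these cells in the Igfbp7 level was not tested.

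**Figure D3:**
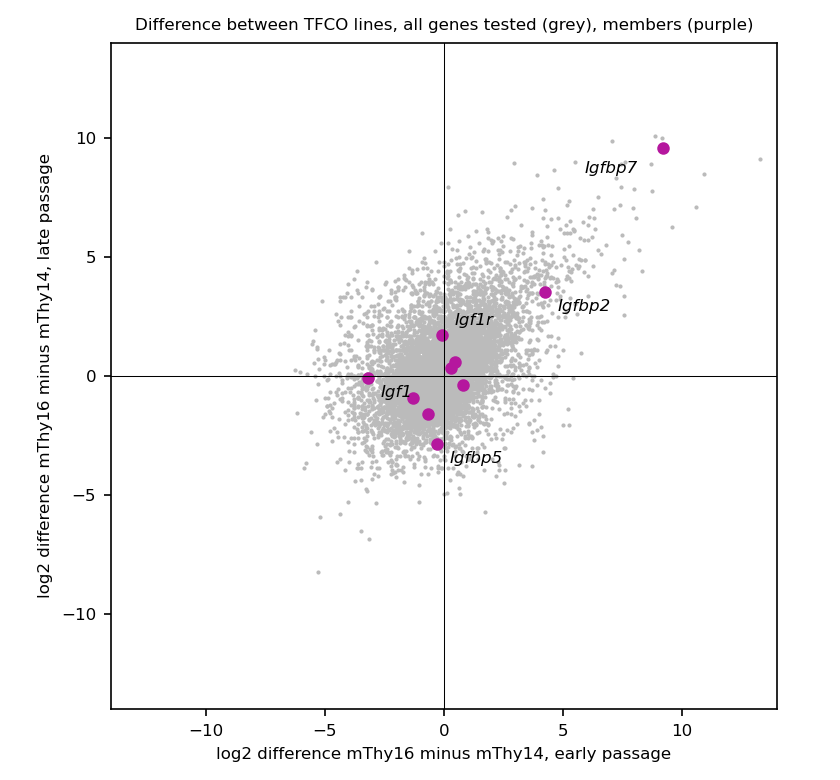
The log2 difference of TFCO line mThy16 from mThy14 at early passage (horizontal) and late passage (vertical) for 14703 genes in grey and the 10 IGF axis genes in purple, with 5 of them named. Igfbp7 lies at the upper right edge (9.21 and 9.58) and Igfbp2 at 4.26 and 3.53, while Igf1 differs only at early passage and Igfbp5 mainly at late passage.

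Igfbp2, on chromosome 1 (GRCm38 chr1:72824503-72852474, plus strand), followed the lines as well, but with tissue as another contrast. TFCOs of mThy14 held 49.2 normalized counts at early and 114 at late passage, and those of mThy16 held 958 and 1331. Thyroid tissues held 25.0 and 5.53 and lung tissues 7100 and 1529. Every TFCO library lay above both thyroid tissues, as for 17.2% of all genes. Every one also lay below both lung tissues, as for 5 of the 10 IGF axis genes (Igf2, Insr, Igfbp2, Igfbp3 and Igfbp4) and for 33.3% of all genes. The log2 difference from thyroid tissue was 4.49 ± 1.37, or 22.5-fold, which was not called (limma, adjusted p = 0.142), and that from lung tissue was -3.49 ± 1.37, also not called (limma, adjusted p = 0.0933). Within the set of thyroid tissue 1 the log2 difference was 1.55 for mThy14 and 5.44 for mThy16. Thyroid against lung tissue was called, at -7.98 ± 1.37 or 253-fold lower (limma, adjusted p = 0.0227), and the difference was -8.98 within the set of thyroid tissue 2. This call was lost by voom (limma voom, adjusted p = 0.122). It also did not hold without thyroid tissue 1 or either lung tissue, where 1 sample of that tissue remained. With 1 library left out, the log2 difference ranged from -9.09 to -6.87. The nearest patterns were those of Cfap43 (1.08) and Dnali1 (1.20), genes of motile cilia, and of Lcn2 (1.24), which encodes lipocalin 2. Lcn2 was at 101 (early) and 229 (late) normalized counts in mThy14, at 4284 and 5130 in mThy16, at 13.1 or less in thyroid tissue and at 1003 or more in lung tissue.

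Igfbp5, which lies next to Igfbp2 on chromosome 1 on the opposite strand (GRCm38 chr1:72857932-72874884), did not share its pattern. Its early TFCO values were 3202 (mThy14) and 2635 (mThy16) normalized counts and its late ones 16258 and 2239, and it stood at 1865 and 7099 in thyroid tissue and at 11696 and 3869.8 in lung tissue. Late mThy14 TFCOs held the highest value of all 8 libraries, and the rest of the TFCOs lay between the thyroid tissues. The log2 difference of TFCOs from thyroid tissue was 0.20 with an interval of -1.84 to 2.24 (limma, adjusted p = 0.909). It turned to -0.38 without late mThy14 TFCOs, and with all libraries under quantile normalization it was -0.23. Igfbp4, on chromosome 11 (GRCm38 chr11:99041244-99054392, plus strand), was abundant and even. It stood at 1330 and 2310.3 normalized counts in early and 2463 and 1899 in late TFCOs of mThy14 and mThy16, at 1573 and 1890.0 in thyroid tissue, and at 3297 and 3449 in lung tissue. TFCOs and thyroid tissue overlapped, and both lay below lung tissue. The log2 difference from thyroid tissue was 0.18 ± 0.33 with an interval of -0.60 to 0.96 (limma, adjusted p = 0.779), and it was -0.10 under quantile normalization. Against lung tissue it was -0.79 ± 0.33 (limma, adjusted p = 0.108). The nearest patterns were those of Atp23 (0.54), Bcdin3d (0.55) and Bmf (0.57) for Igfbp5 and of Camsap2 (0.16), Eps15 (0.17) and Dync1li2 (0.17) for Igfbp4.

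Levels of different genes were compared per kilobase of the longest annotated transcript. Of the summed counts per kilobase of the 5 binding proteins, TFCOs of mThy14 held 57.2% as Igfbp5 and 37.2% as Igfbp4 at early passage, and 78.4% and 18.6% at late passage. In TFCOs of mThy16, 77.3% and 77.8% were Igfbp7, and Igfbp2 followed with 9.36% and 12%. In thyroid tissue Igfbp7 (67.5% and 45.5%) and Igfbp3 (15.3% and 28.3%) came first, and Igfbp5 held 7.24% and 18.5% and Igfbp4 9.58% and 7.71%. In lung tissue, Igfbp2 took 40.3% and 12.1% and Igfbp7 36.2% and 66.2%. Without the length correction, which applies to reads from whole transcripts but not to reads from their 3′ ends, the leading gene stayed the same in the TFCO libraries. It became Igfbp5 in thyroid tissue 2 (42.1%) and lung tissue 1 (40.6%). Igfbp7 thus led in mThy16 and thyroid tissue 1 with and without the correction, and in thyroid tissue 2 only with it. It was at 1.01% or less in mThy14, and neither line held Igfbp3 above 0.498%. Per kilobase, the ligands Igf1 and Igf2 together came to 6.27% of the binding proteins in early mThy14 TFCOs, 0.0596% to 0.224% in the other TFCOs, and 0.541% to 2.43% in tissue. These percentages were taken only with the length correction, and their size depends on it.

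**Figure D4:**
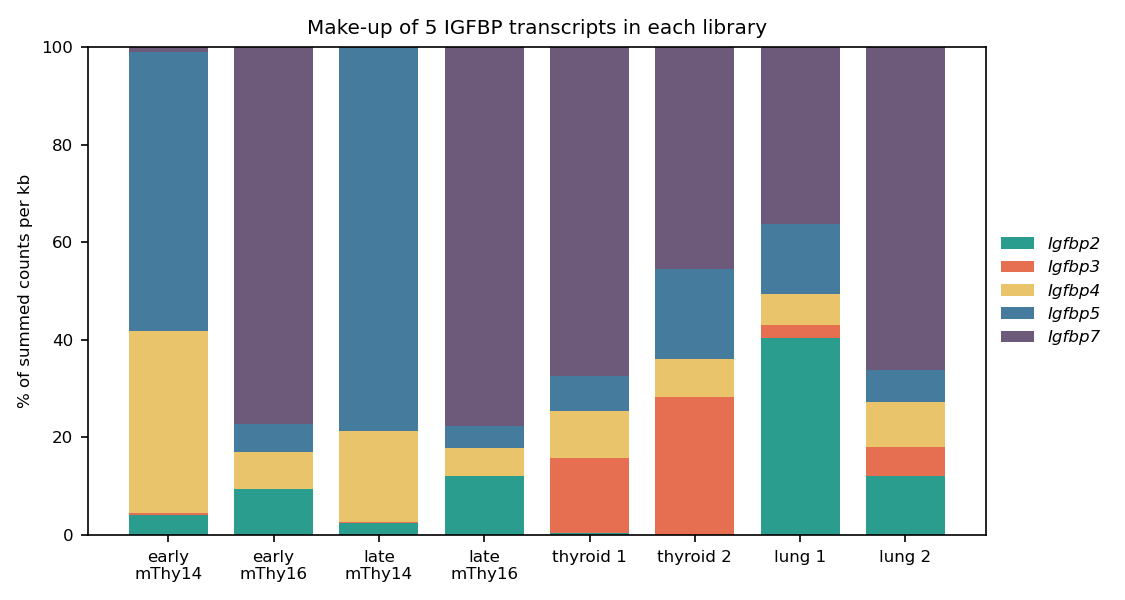
Share of each of 5 binding protein genes in their summed normalized counts per kilobase, as stacked bars from 0 to 100% for each of the 8 libraries. Igfbp5 and Igfbp4 fill the bars of TFCO line mThy14, Igfbp7 leads in line mThy16 and in thyroid tissue, and Igfbp3 is visible only in tissue.

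Early and late TFCOs were compared to ask whether the axis held through passaging. None of the 10 genes was called, nor was any of the 14703 genes (limma, smallest adjusted p = 1). At an unadjusted p under 0.05 there were 166 genes, with 0 of the 10 among them, and limma's voom on recovered reads called no gene either, with 84 at an unadjusted p under 0.05. When the line was a replicate block, 202 genes and 1 IGF axis gene had an unadjusted p under 0.05, and again none was called. Igf1 was the only one of the 10 genes whose late values both lay below the early ones, as for 12.4% of all genes, and for none did both late values lie above, as for 11% of all genes. It was at 382 (early) and 31.2 (late) normalized counts in mThy14 and at 40.6 and 29.1 in mThy16, a log2 difference of -2.02 ± 0.99 (limma, adjusted p = 1). Igfbp7 stood at 11.2 (early) and 9.37 (late) normalized counts in mThy14 and at 7265 and 7933 in mThy16, so that the lines remained apart. Igfbp5 in mThy14 stood at 3202 (early) and 16258 (late), and the share of Igfbp4 among its binding proteins at 37.2% and 18.6%. The interval of the late minus early log2 difference was -0.73 to 0.87 for Igf2r and -0.55 to 1.16 for Igfbp4, and that of Igfbp7 reached from -7.60 to 7.49 with the lines so far apart.

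**Figure D5:**
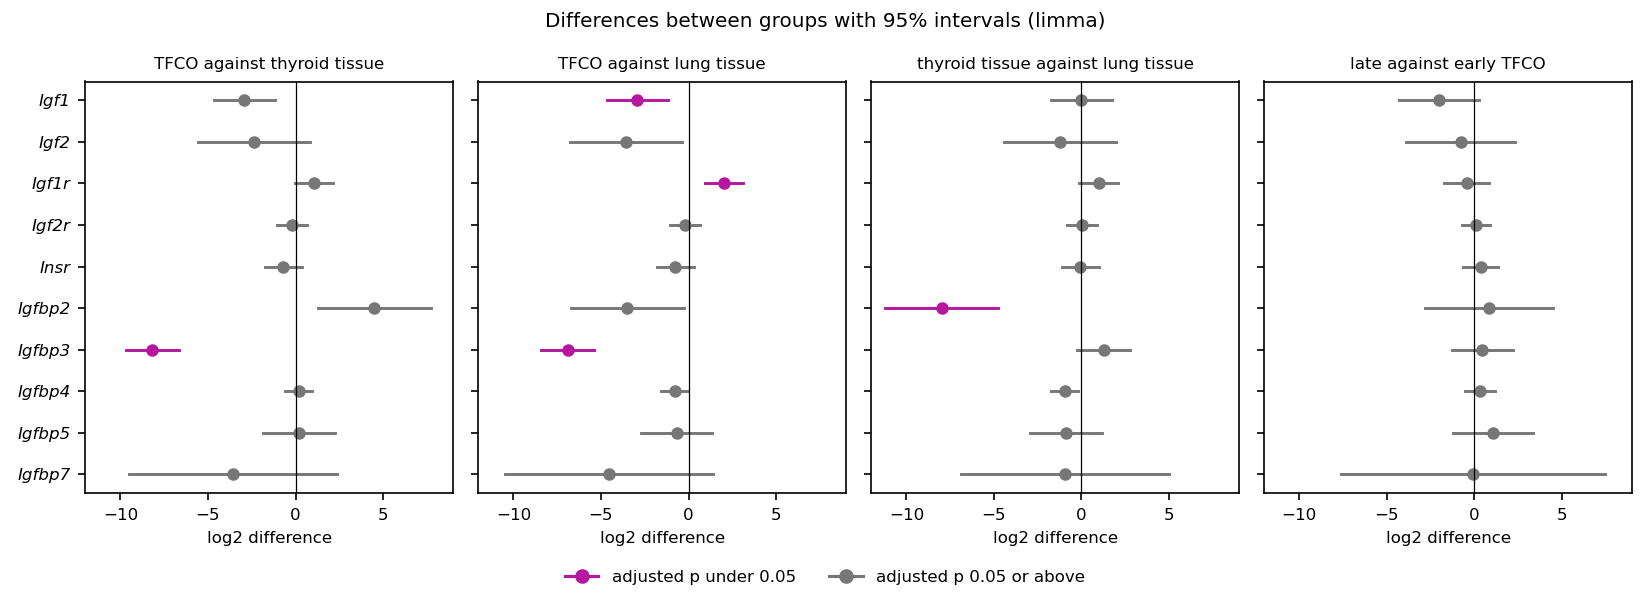
The log2 difference between groups (first minus second) of each IGF axis gene with its 95% interval from limma, in 4 panels for 4 comparisons, with calls at adjusted p under 0.05 in purple. Igfbp3 is called in TFCOs against both tissues (-8.18 and -6.91), Igf1 (-2.93) and Igf1r (2.02) against lung tissue, and Igfbp2 (-7.98) in thyroid against lung tissue, while the interval of Igfbp7 is wide throughout.

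Of 35 further genes of the pathway, all tested, 2 were called in TFCOs against thyroid tissue, both of them lower, where 3.05% of all genes were called lower, and the median log2 difference was -0.43. Grb10, an adaptor that restrains insulin and IGF1 receptor signalling, stood at 37.9 and 4.0 normalized counts in early and 15.6 and 7.8 in late TFCOs of mThy14 and mThy16, against 1061 and 1225 in thyroid tissue and 687 and 1119 in lung tissue. Its log2 difference from thyroid tissue was -6.46 ± 0.69 (limma, adjusted p = 0.00725), and it was -6.36 within the set of thyroid tissue 1. Igfbp6, a binding protein with a preference for IGF2, stood at 9.8 and 13.9 in early and 5.2 and 12.3 in late TFCOs, 196 and 220.3 in thyroid tissue and 4401 and 975 in lung tissue. Its log2 difference from thyroid tissue was -4.28 ± 0.78 (limma, adjusted p = 0.0340). Both thus resembled Igfbp3 in being scarce in all 4 TFCO libraries and plentiful in all 4 tissues.

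Against lung tissue, 4 of the 35 were higher in TFCOs (Igfbp1, Stc2, Irs2 and Sh2b1) and 5 lower, among them Igfbp6, Htra1, Irs1 and Grb10, with a median log2 difference of 0.25. Over all genes 9.83% were called higher and 13.5% lower, so that the list was close to the background. The receptor substrates moved apart, Irs2 by 1.87 ± 0.43 (limma, adjusted p = 0.0275) and Irs1 by -2.52 ± 0.50 (limma, adjusted p = 0.0177). Stc2, which encodes an inhibitor of the protease that cleaves IGFBP4, differed by 3.96 ± 0.57 (limma, adjusted p = 0.00647). In thyroid against lung tissue, only Insrr was called, with 1 of 35 higher and 0 lower and a median of 0.40, beside 2.89% of all genes called higher. Insrr, a receptor of the insulin receptor family that senses alkaline pH, stood at 336 and 136 normalized counts in thyroid tissue, 1.7 and 5.4 in lung tissue, and 16.8 to 38.5 in TFCOs. Its thyroid minus lung log2 difference was 5.70 ± 0.96 (limma, adjusted p = 0.0215), and TFCOs were at -3.10 ± 0.96 from thyroid tissue (limma, adjusted p = 0.148). Between passages, 0 of the 35 were called, and their median log2 difference was 0.06.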

How the data were processed

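The authors deposited 1 table of normalized counts (a signal, reads per gene divided by a size factor) for 8 libraries and 16119 genes. By their methods the authors used DESeq2 and a stranded mRNA kit; the labels name an adapted CEL-Seq protocol, and the submitters' processing notes BWA 0.6.2-r126, mm10 and hg38. The counter and annotation are not given in the sources used here. Every value above 0 was a whole multiple of 1 step per library (tolerance 0.01 of a step), which gave reads and depth. Samples were grouped by title.

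Genes were kept if 2 or more libraries held 10 normalized counts, which left 14703. Their log2(normalized counts + 1) was fitted with limma (version 3.58.1, R version 4.3.3), allowing the variance a trend over the mean, and p-values were adjusted by Benjamini-Hochberg. TFCOs of a line were averaged before comparison with tissue. With 2 against 2, an exact two-sided permutation test cannot go below p = 0.333 and was not used. On simulated counts (dispersion 0.1), the fit of TFCOs against thyroid tissue recovered 88 of 100 genes changed 4-fold and 100 of 100 changed 8-fold, with 2 false calls among 14306 genes tested. The fit of late against early TFCOs recovered 71 and 99 of 100, with 3 false calls among 14323. All 8 simulated libraries were independent draws without a difference between lines, and only genes with enough expected reads were changed. The lines differ in the real data, so these recoveries do not measure the power of either comparison here.

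Early and late libraries of a line pair by title (r of deviations 0.477). Named were all members, pathway genes called in TFCOs against thyroid or in thyroid against lung, and the 3 nearest patterns per member. Pathway genes called in TFCOs against lung, and H19, were chosen after their values were seen. Values of 1 pathway gene are not reported here. Members and lists were chosen with earlier results of these data known. Gene positions and transcript lengths came from GENCODE M21 (GRCm38), promoters from RefSeq. Alternatives covered pseudocount, filter, scaling, trend, block, separate TFCO libraries and each library left out. Planned edgeR and DESeq2 fits were not run, since the table was not entered as counts, and limma's voom was added after seeing the data.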

Additional observations from a re-analysis of the deposited data

Results flagged for a closer look

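Of the 10 genes, 4 moved in opposite directions between early and late passage in the TFCO lines. The difference between the lines was not tested, since each line has 1 library per passage. Igfbp5 changed by a log2 value of 2.34 in mThy14 and -0.23 in mThy16. Igf1r changed by -1.33 in mThy14 and 0.44 in mThy16, and Igfbp4 by 0.89 and -0.28. Igfbp7 changed by -0.24 and 0.13, and its mThy14 value rests on 8 and 9 reads.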

How the results depend on the processing

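The calls of Igfbp3 in TFCOs against both tissues held under every alternative run, voom and each library left out included. With 1 library left out, the number of the 10 genes called ranged from 1 to 3 in TFCOs against thyroid tissue, from 1 to 5 against lung tissue and from 0 to 3 in thyroid against lung tissue. The share of all genes called moved as well, so these ranges say little about the 10 genes in particular. With a TFCO library left out, that share was 2.84% to 3.72% against thyroid tissue and 20.4% to 23.8% against lung tissue. It moved much further where a tissue sample was left out, which leaves 1 in its group. Without the mean-variance trend 1 of the 10 genes was called against lung tissue, and with voom 0 in thyroid against lung tissue. With a replicate block (TFCO line, or tissue number) 0 genes were called in late against early TFCOs and 1 in thyroid against lung tissue, as without it, and the numbers of the tissues (r of deviations -0.073) mark no shared animal in the labels.

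Direction turned only for differences that were not called. Under quantile normalization, which moved the median of all genes by over 0.1 in the comparisons with tissue but not between passages, Igfbp4 and Igfbp5 were at -0.10 and -0.23 against thyroid tissue, Igf1 and Insr at 0.25 and 0.034 in thyroid against lung tissue, and Igfbp7 at 0.35 in late against early TFCOs. With equal totals Igf2r was at -0.086 in thyroid against lung tissue. With 1 library left out, ranges were -0.53 to 0.10 (Igf2r), -0.047 to 0.40 (Igfbp4) and -0.76 to 1.17 (Igfbp5) against thyroid tissue, and -1.48 to 0.11 (Igfbp5) against lung tissue. In thyroid against lung tissue they were -0.60 to 0.60 (Igf1), -3.31 to 0.89 (Igf2), -0.29 to 0.34 (Igf2r), -0.55 to 0.43 (Insr) and -1.85 to 0.078 (Igfbp5). In late against early TFCOs they were -1.58 to 0.026 (Igf2), -1.29 to 0.40 (Igf1r), -0.085 to 0.23 (Igf2r), -1.29 to 2.97 (Igfbp2), -0.21 to 1.09 (Igfbp3), -0.10 to 0.70 (Igfbp4), -0.38 to 2.48 (Igfbp5) and -4.85 to 4.73 (Igfbp7), where leaving out a library unbalances the lines. The planned edgeR and DESeq2 fits were not run. With 2 samples per group, precision is limited by the spread between samples and not by depth, except where a value rests on few reads: 4 to 13 for Igfbp3 in TFCOs, 8 and 9 for Igfbp7 in mThy14, 4 to 15 for Igf2 in TFCOs and thyroid tissue 1, and 6 for Igfbp2 in thyroid tissue 2.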

Other observations

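H19, an imprinted RNA gene beside Igf2 that was looked at after its values were seen, stood at 82.9 and 65.4 normalized counts in early and 45.8 and 73.8 in late TFCOs of mThy14 and mThy16, at 199 and 4109 in thyroid tissues 1 and 2, and at 22.6 and 141 in lung tissues 1 and 2. Thyroid tissue 2 held the most of both Igf2 and H19. The lung tissues lay on both sides of the TFCO range for H19 and above it for Igf2. Igfbp1, a binding protein made mainly by liver, stood at 69.3 to 153 normalized counts in TFCOs, 23.9 and 0 in thyroid tissue and 0 and 1.3 in lung tissue.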
